A study of Rattus norvegicus with 12 samples.

Results

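The comparison described here is the effect of maternal fasting on total RNA of the fetal rat liver. It uses the 3 total RNA arrays from fasted dams, labelled IUGR for intrauterine growth restriction, and the 3 total RNA arrays from fed dams, labelled controls. These are 6 of the 12 arrays of the series, and the other 6 measured RNA taken from polysomes, the messages that carry several ribosomes. All fetuses were Sprague Dawley rats delivered by Caesarean section on day 19 of a gestation that ends at day 21. Control dams ate freely. The other dams had no food for 48 hr from day 17, so the pregnancy and not the fetus itself was manipulated, and liver growth was not among the measurements used here. The labels name 3 dams per diet and call the arrays biological replicates, without saying how many livers each array holds or which dam it came from.

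The fetal liver draws most of its fuel as glucose from the mother, builds fatty acids from it, and houses the blood-forming cells of the fetus. When food is withheld, an adult liver turns from making fat to burning it, a switch in which the fatty acid receptor PPAR alpha raises genes of oxidation and the factors SREBP-1c and ChREBP lose their drive on genes of synthesis. Bile acid and drug-metabolising enzymes are made in quantity around and after birth, and chaperones of the heat shock family follow the load of newly made protein.

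Each array gave 28826 probe intensities with array medians from 101.3 to 108.33, and 14497 genes had a probe with exactly 1 gene symbol. Where a gene had several such probes, the brightest over the 12 arrays stood for it. Genes were tested if their mean over the 12 arrays reached 6.07 on the log2(intensity + 1) scale, which kept 10174. The liver label was borne out by its defining transcripts, with 17 of 18 measured hepatocyte markers above that level and albumin (Alb) at 14.08 in fed and 14.05 in fasted livers. Over all probes, total RNA arrays of the same diet correlated at 0.9942 to 0.9953, and arrays of different diets at 0.9936 to 0.9944. Every value below is on the log2(intensity + 1) scale, values of 3 arrays are given in the order of their replicate numbers, and a change is the fasted minus the fed mean with its SE. The probes differ in their response, so levels of different genes are not compared, and the number of arrays limits the precision.

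Maternal fasting changed 105 genes in total RNA, 1.03% of those tested (limma, Benjamini-Hochberg adjusted p under 0.05). Of these, 75 were higher after fasting (0.737% of genes tested) and 30 lower (0.295%). The change reached 1.5-fold in 49 genes (0.482%), of which 39 were higher and 10 lower, and it reached 2-fold in 14, of which 12 were higher and 2 lower. The median change was 0.59 among the genes that rose and -0.50 among those that fell, against 0.0007 over all genes tested. In all 105 the 3 fasted arrays lay entirely on one side of the 3 fed arrays, which was also so for 24.7% of all genes tested. The count depended on single arrays. It fell to 17 when fasted total 1 was left out, to 22 when fed total 1 was, to 24 for fasted total 2 and to 30 for fed total 3. It was 53 with fed total 2 removed and 57 with fed polysome 2 removed. The direction of all 105 held in each of these fits, which was certain beforehand because their groups were separate. The threshold was passed whichever of the 12 arrays was left out by 14 genes: Acy3, Calcoco1, Cpt1a, Csad, Cyp8b1, Ech1, Fam227b, Fasn, Fbxo32, Gpld1, Hsph1, Nr1d2, Pink1 and Scd. In 5 of the 105, Fbxo32 among them, the fed total mean lay under the filter level.

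**Figure D1:**
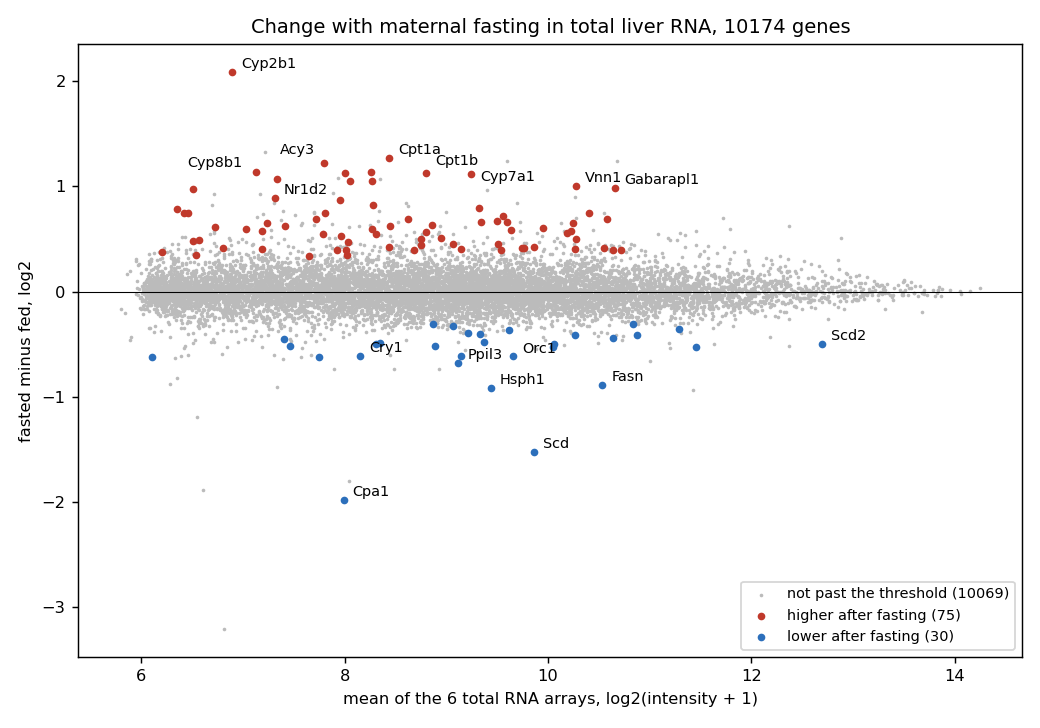
Change with maternal fasting in total RNA (y axis, fasted minus fed, log2) against the mean level over the 6 total RNA arrays (x axis, log2(intensity + 1)) for each of 10174 genes. Grey points did not pass the limma threshold, the 75 red points were higher and the 30 blue points lower after fasting; Cyp2b1 stands highest among the red points, and Cpa1 and Scd lowest among the blue.

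The enzymes that admit fatty acids to the mitochondrion rose with fasting. Cpt1a, which loads long-chain fatty acids onto carnitine for entry into mitochondria, read 7.71, 7.85 and 7.85 in fed and 9.0, 8.89 and 9.34 in fasted livers. The fasted arrays were all higher, by 1.27 ± 0.16 or 2.41-fold (limma adjusted p = 0.00289). Its muscle-type relative Cpt1b read 8.0, 8.15 and 8.54 in fed and 9.29, 9.75 and 9.06 in fasted livers. Again the groups did not overlap, and the rise was 2.19-fold (limma adjusted p = 0.0347). These were the only 2 of 23 members of the list of mitochondrial fatty acid oxidation and ketogenesis that passed the threshold (1.03% of all genes). Across that list, 20 members had a change above 0 and 3 below (50.2% of all genes tested were above 0), the median was 0.20, and in 11 all fasted arrays lay above all fed arrays, as they did for 12.9% of all genes. The next members by p were Hadhb, a subunit of the trifunctional protein, at 0.22 ± 0.06 (limma adjusted p = 0.104), the short-chain dehydrogenase Acads at 0.28 ± 0.09 (0.126) and the isomerase Eci1 at 0.29 ± 0.11 (0.219).

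In the peroxisomal and microsomal list, Ech1, an isomerase for unsaturated fatty acids, was the 1 of 16 members that changed (1.03% of all genes). It read 10.27, 10.31 and 10.12 in fed and 10.85, 11.10 and 10.81 in fasted livers, so the groups lay apart, and it rose 1.61-fold (limma adjusted p = 0.00536). The median of the list was 0.18. The peroxisomal transporter Abcd2 was 0.76 ± 0.23 higher and the omega-hydroxylase Cyp4a3 0.60 ± 0.19 higher, with limma adjusted p of 0.114 and 0.146.

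Among 24 responders to PPAR alpha and fasting above the filter level, Vnn1 and Acot12 rose (0.737% of all genes) and none fell, with a median of 0.23. Vnn1, a pantetheinase that frees cysteamine and the vitamin precursor of coenzyme A, read 9.78, 9.79 and 9.74 in fed and 10.62, 11.05 and 10.67 in fasted livers. The fed arrays were nearly level and all fasted arrays stood higher, a 2.01-fold rise (limma adjusted p = 0.0181). Acot12, which splits acetyl-CoA in the cytosol, read 9.47, 9.27 and 9.28 against 9.79, 9.77 and 9.65 and rose 1.32-fold (limma adjusted p = 0.0347). Several textbook fasting genes did not pass. Pdk4, the kinase that shuts pyruvate out of oxidation, read 9.09, 9.09 and 8.44 against 9.50, 9.56 and 9.42. Its groups did not overlap, as in 24.7% of all genes, with a change of 0.62 ± 0.18 (limma adjusted p = 0.108). Angptl4, an inhibitor of lipoprotein lipase, was spread from 7.79 to 9.06 among fed livers and lay within that span after fasting. The transcript of the receptor itself, Ppara, was 0.27 ± 0.08 higher (limma adjusted p = 0.112), and Ppargc1a, a coactivator of oxidative genes, 0.29 ± 0.13 higher (0.301). Fgf21, the fasting hormone of the liver, lay below the filter level.

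Central enzymes of fatty acid synthesis fell. In the list of fatty acid and triglyceride synthesis, 6 of 23 members were lower (0.295% of all genes) and none was higher, with a median of -0.24. In 10 members all fasted arrays lay below all fed arrays, against 11.9% of all genes. Scd, the desaturase that makes oleic from stearic acid, read 10.86, 10.44 and 10.58 in fed and 9.25, 8.92 and 9.13 in fasted livers. The lowest fed array was more than 1 log2 unit above the highest fasted array, and the fall was 2.88-fold (-1.52 ± 0.16; limma adjusted p = 0.00289). Fasn, the fatty acid synthase, read 11.14, 10.76 and 11.02 against 10.08, 9.97 and 10.22. It fell 1.85-fold, with every fasted array below every fed one (limma adjusted p = 0.00289).

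The other 4 list members past the threshold fell less far in total RNA. Acaca, the acetyl-CoA carboxylase that makes malonyl-CoA, read 9.73, 9.46 and 9.64 in fed and 9.16, 9.07 and 9.17 in fasted livers, a 1.39-fold fall without overlap (limma adjusted p = 0.0300). Acly, which supplies cytosolic acetyl-CoA from citrate, read 11.55, 11.37 and 11.48 against 11.19, 11.03 and 11.12 and fell 1.28-fold (limma adjusted p = 0.0431). Mid1ip1, an activator of acetyl-CoA carboxylase, fell 1.29-fold (0.0420), and Scd2, a second desaturase, 1.41-fold (0.0181), both in limma. The groups of each of these 4 genes were separate. Just outside the threshold were Pnpla3, a lipid droplet protein, at -0.91 ± 0.21 and the desaturase Fads2 at -0.51 ± 0.12, each with a limma adjusted p of 0.0560. Mlxipl, which encodes ChREBP, differed by -0.10 ± 0.08 (limma adjusted p = 0.593). Srebf1 was not analysed here. No member of the 19 of cholesterol synthesis and uptake passed in limma, with a median of -0.11 and the sterol enzymes Nsdhl (-0.31 ± 0.10) and Fdps (-0.24 ± 0.08) nearest to the threshold.

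**Figure D2:**
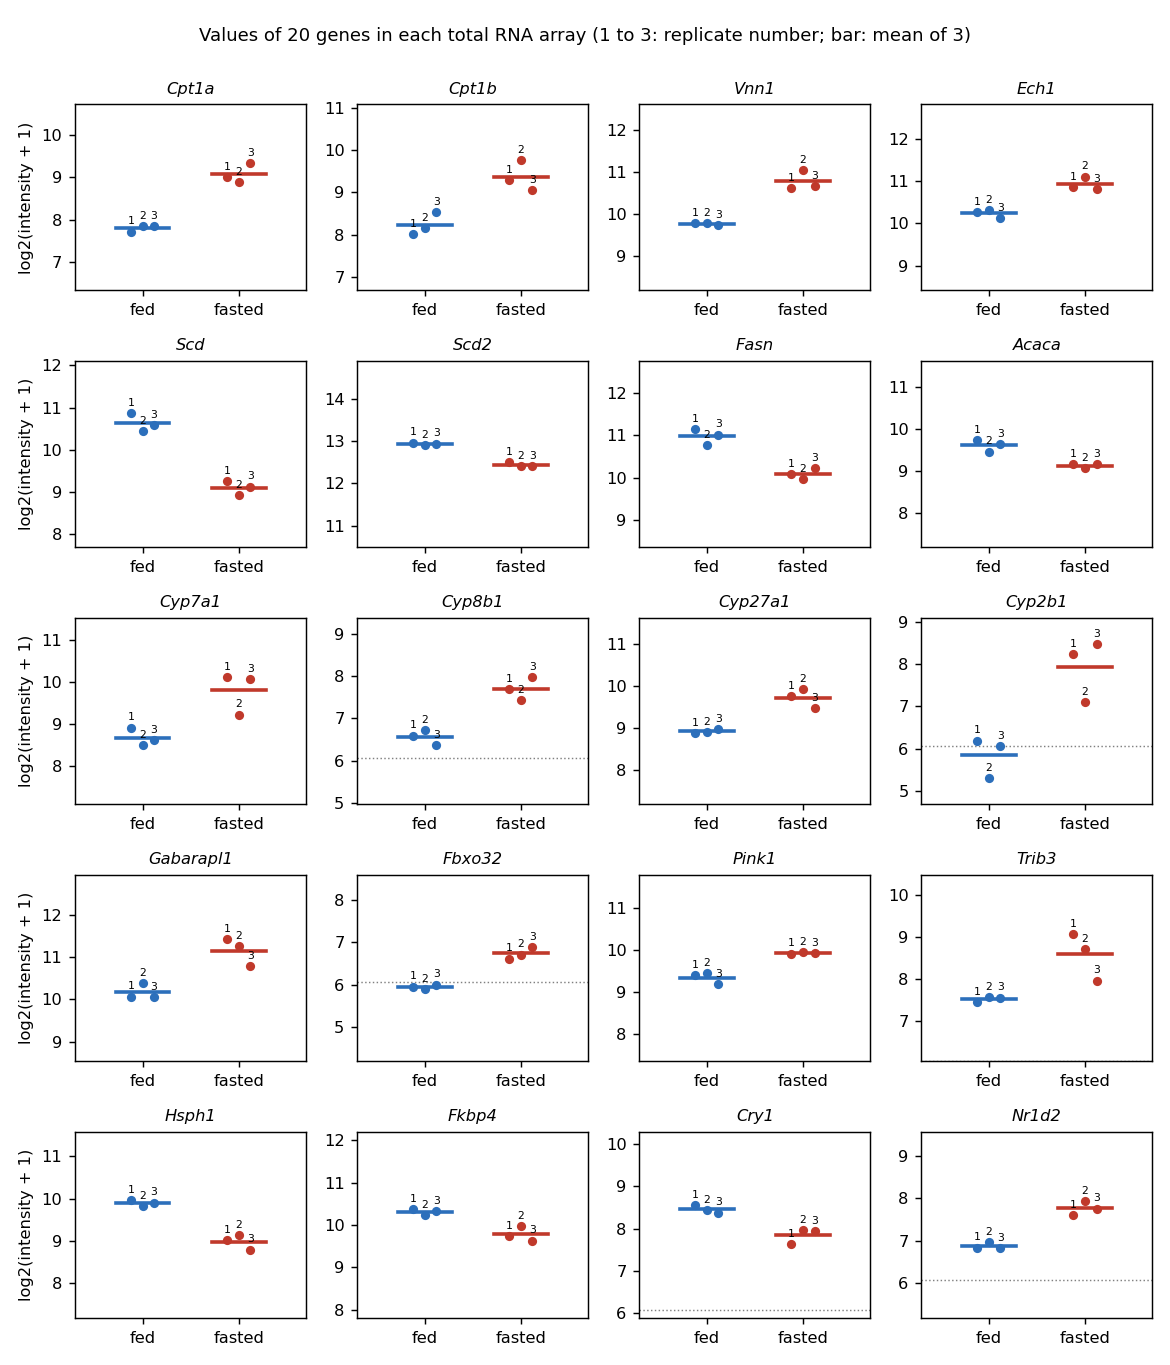
Values of 20 genes in the 3 fed (blue) and 3 fasted (red) total RNA arrays, on the log2(intensity + 1) scale with an equal span on every y axis; numbers are replicate numbers, bars are means of 3, and the dotted line is the filter level of 6.07. Fed and fasted arrays are separate in every panel, with the largest differences in mean for Cyp2b1 and Scd, and Trib3 is spread from 7.96 to 9.07 among fasted arrays.

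Enzymes that turn cholesterol into bile acids rose, Cyp7a1 and Cyp8b1 of the classical route and Cyp27a1 of the alternative one among them. Of 17 members of the list of bile acid synthesis and transport, 5 were higher after fasting (0.737% of all genes) and none lower. The median of the list was 0.31 in total RNA and 0.045 in polysome RNA. Cyp7a1, the rate-limiting enzyme of the classical route, read 8.92, 8.51 and 8.63 in fed and 10.11, 9.23 and 10.07 in fasted livers. Fasted total 2 stood below the other fasted arrays but above all fed ones, and the rise was 2.17-fold (1.12 ± 0.24; limma adjusted p = 0.0450). Cyp8b1, the sterol hydroxylase that sets the share of cholic acid, read 6.60, 6.72 and 6.37 against 7.69, 7.43 and 7.97. Its groups were far apart, with a rise of 2.19-fold (limma adjusted p = 0.00289). Cyp27a1, which opens the alternative route, read 8.88, 8.90 and 8.98 against 9.76, 9.92 and 9.48 and rose 1.74-fold (limma adjusted p = 0.0181). Hsd3b7, which oxidises the sterol ring, rose 1.37-fold, and Amacr, the racemase for the side chain, 1.60-fold, with limma adjusted p of 0.0465 and 0.0431. With 1 total array left out, Cyp8b1 passed in 6 of 6 fits. Cyp7a1 and Cyp27a1 passed in 1 of 6 each, and Hsd3b7 and Amacr in 0 of 6. The transporters did not pass. Abcc3, an export pump of the basolateral membrane, was 0.42 ± 0.10 higher (limma adjusted p = 0.0606). Slc10a1, the uptake carrier for bile salts, was 0.51 ± 0.20 higher (limma adjusted p = 0.219), and the sterol exporter Abcg5 0.42 ± 0.11 lower (0.0940). The groups were separate in each, as in 24.7% of all genes.

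Among 34 measured drug-metabolising P450 enzymes and their receptors, 18 lay above the filter level. Of these 18, 3 rose (0.737% of all genes) and none fell, with a median of 0.30. Cyp2b1, the phenobarbital-inducible P450, read 6.19, 5.30 and 6.06 in fed and 8.24, 7.10 and 8.47 in fasted livers. This was the largest rise of all genes past the threshold, 4.26-fold (2.09 ± 0.31; limma adjusted p = 0.0104). Replicate 2 was the lowest in both groups. The fed means, 5.85 in total and 5.26 in polysome RNA, were below the filter level. Cyp2b1 thus entered the test only through the fasted arrays, and the size of the rise rests on low fed intensities. Cyp2e1, which oxidises ethanol and acetone, read 7.66, 7.63 and 7.80 in fed livers and 8.35, 8.75 and 9.38 in fasted livers. The fed arrays were close together and the fasted ones spread over about 1 log2 unit, all of them higher, with a rise of 2.19-fold (limma adjusted p = 0.0300). Cyp2d3 rose 1.40-fold (limma adjusted p = 0.0384). Cyp2b2, a near-identical copy of Cyp2b1, was 0.93 ± 0.23 higher and Cyp2d4, a relative of Cyp2d3, 0.47 ± 0.11 higher, with limma adjusted p of 0.0670 and 0.0540. Probes of such copies can bind each other's transcripts, so these members are not independent of each other. Ahr, the receptor for dioxin, was 0.81 ± 0.19 higher (limma adjusted p = 0.0607). None of 21 phase II conjugation genes passed, with the glutathione transferase Gstm4 nearest at 0.41 ± 0.09 (limma adjusted p = 0.0511).

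Genes of glucose supply did not pass the threshold. None of 26 members of the list of gluconeogenesis and its regulators changed, with a median of 0.07. Nor did any of 32 of glycolysis and glycogen, with a median of 0.06. Since 1.03% of all genes passed, a list of such size with none does not stand apart from other genes. The same holds for the other lists with no member past the threshold. Pck1, the enzyme that commits carbon to glucose, read 6.32, 6.02 and 6.07 in fed and 6.28, 6.02 and 6.06 in fasted livers, close to the filter level in both. G6pc1, which releases free glucose, was spread from 7.19 to 8.39 among fed arrays, and its fasted arrays fell between those values (limma adjusted p = 0.811). The transaminase Got1 was 0.58 ± 0.16 higher, with overlapping groups, and Ugp2, which makes the sugar donor for glycogen, 0.39 ± 0.11 higher, with limma adjusted p of 0.0974 and 0.105.

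In the list of urea cycle and amino acid catabolism, 1 of 41 members changed (1.03% of all genes). This was Acy3, an aminoacylase that removes acetyl groups from mercapturic acids. It read 7.35, 6.99 and 7.21 in fed and 8.46, 8.33 and 8.43 in fasted livers, with a wide gap between the groups, and rose 2.33-fold (limma adjusted p = 0.00289). Asl, which cleaves argininosuccinate in the urea cycle, was 0.65 ± 0.15 higher (limma adjusted p = 0.0560), and Bckdha, of the branched-chain keto acid dehydrogenase, 0.43 ± 0.10 higher (0.0624). Tat, the tyrosine transaminase, lay below the filter level.

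Trib3, a pseudokinase raised by the amino acid sensing factor ATF4, was the 1 of 37 members of the ATF4 list that changed (1.03% of all genes). It read 7.45, 7.57 and 7.56 in fed and 9.07, 8.71 and 7.96 in fasted livers. Fed arrays were nearly level, fasted arrays were uneven and all higher, and the rise was 2.08-fold (limma adjusted p = 0.0429). In the list, 31 members had a change above 0 and 6 below, with a median of 0.16. The neutral amino acid carriers Slc7a5 (0.34 ± 0.08) and Slc1a4 (0.58 ± 0.16) and the ER protein Herpud1 (0.54 ± 0.14) were nearest to the threshold, with limma adjusted p of 0.0607, 0.105 and 0.0862. Asns, the asparagine synthetase, was 0.19 ± 0.07 higher (limma adjusted p = 0.197). The C/EBP-ATF response element TGATGCAA was searched on both strands of RefSeq promoter windows (250 bases before to 50 after the start, build GRCr8). It stood in 8 of the 33 genes of this list with a window (24.2%), against 0.616% of all genes tested that had one. The list was written from general knowledge of ATF4 targets, so a high share was likely beforehand and says nothing about fasting. The 8 were Chac1, Slc1a4, Nupr1, Herpud1, Aars1, Cars1, Nars1 and Mars1; Trib3 was not among them.

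The chaperone Hsph1 and 3 cochaperones of HSP90 fell. Of 35 members, 4 were lower (0.295% of all genes) and none higher, with a median of -0.20. In 24 of them all fasted arrays lay below all fed arrays, against 11.9% of all genes tested. Hsph1, a large HSP70-type chaperone that exchanges nucleotide on HSP70, read 9.96, 9.82 and 9.90 in fed and 9.02, 9.13 and 8.79 in fasted livers. The lowest fed array was well above the highest fasted one, and the fall was 1.88-fold (-0.91 ± 0.12; limma adjusted p = 0.00289). Fkbp4, an immunophilin on HSP90 complexes of steroid receptors, read 10.37, 10.23 and 10.32 against 9.73, 9.98 and 9.63 and fell 1.44-fold (limma adjusted p = 0.0181). Ahsa2, a relative of the HSP90 ATPase activator, read 9.23, 9.12 and 9.10 against 8.65, 8.56 and 8.70 and fell 1.43-fold (limma adjusted p = 0.0137). Ppid, the cyclophilin of the same complexes, fell 1.36-fold (limma adjusted p = 0.0474). The groups of all 4 were separate. Chordc1, an HSP90 partner, at -0.46 ± 0.10 and Dnaja1, a J-protein of HSP70, at -0.41 ± 0.10 had limma adjusted p of 0.0503 and 0.0606. The constitutive Hspa8 (-0.20 ± 0.08) and Hsp90aa1 (-0.23 ± 0.09) also had separate groups (24.7% of all genes), with limma adjusted p of 0.221 and 0.217.

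The promoters of this list are shown for the sites of heat shock factor. The element was searched as the units GAA, TTC and GAA, in that order with 2 bases of any kind between neighbours, on both strands in the RefSeq windows of build GRCr8, where matches may overlap. It stood in 7 of 31 list members with a window (22.6%), against 0.426% of all genes tested that had one: Hsph1, Hspa8, Hspd1, Hspe1, Dnaja1, Chordc1 and Cct4. The list was written from general knowledge of heat shock genes, so a high share was likely beforehand and says nothing about fasting. The stretches below run 5′ to 3′ on the gene's strand, and capitals mark the element. For Hsph1 all 250 bases before the start are given (chr12:10427118-10427367, + strand), since this gene fell most.
Hsph1: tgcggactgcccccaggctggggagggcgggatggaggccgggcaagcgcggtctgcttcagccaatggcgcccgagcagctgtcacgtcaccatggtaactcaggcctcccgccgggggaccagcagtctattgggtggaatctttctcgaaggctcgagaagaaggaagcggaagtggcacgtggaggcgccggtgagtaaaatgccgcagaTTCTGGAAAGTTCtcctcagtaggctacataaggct
For Hspa8, which has another match farther upstream, the last 100 bases before the start are given (chr8:50080414-50080513, + strand), and likewise for Hspe1 (chr9:64084227-64084326, + strand), where overlapping elements also lie in the window of its neighbour Hspd1 on the opposite strand.
Hspa8: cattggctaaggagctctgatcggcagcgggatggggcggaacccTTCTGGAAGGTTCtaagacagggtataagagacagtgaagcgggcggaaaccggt
Hspe1: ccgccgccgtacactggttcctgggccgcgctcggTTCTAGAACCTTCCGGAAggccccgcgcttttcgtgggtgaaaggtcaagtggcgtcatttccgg
In Dnaja1 and Chordc1 the element lies just after the start, and 30 bases around it are given (chr5:60638405-60638434 and chr8:23650828-23650857, both + strand).
Dnaja1: gccgggcgGAACTTTCCAGAAcgctcggtg
Chordc1: ccgGAACGTTCGGGAAGATTCCTGAAgcag
The changes of the 7 genes ran from -0.91 in Hsph1 to -0.06 in Hspd1, with Cct4 at -0.18 and Hspe1 at -0.22, so a match went with changes of very different size. Fkbp4, Ahsa2 and Ppid were not among the matches.

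Other motifs were searched in the same windows, on both strands, and a match or its lack describes these letters only. Counts are of genes with a window, and a gene counts if any of its windows had a match. The sterol regulatory element TCACNCCAC stood in 0 of 18 genes of the fatty acid synthesis list, against 1.2% of genes tested. The PPAR repeat, AGGTCA given again after 1 base of any kind, stood in 0 of 60 genes that rose, against 0.0355%. The E-box CACGTG stood in 6 of 60 genes that rose and in 5 of 24 that fell (20.8%), against 9.5%. It also stood in 3 of 14 of the clock list (21.4%: Nr1d1, Tef and Bhlhe40). That list was written from general knowledge of clock genes, so its share says nothing about fasting. Among genes that rose, the FoxO site TGTTTAC stood in 7 of 60 (11.7%, against 2.62%). The D-box TTATGNAA stood in 4 (6.67%, against 1.82%) and the REV-ERB site TAGGTCA in 3 (5.0%, against 1.86%). Among genes that fell, these 3 motifs stood in 0, 0 and 1 of 24.

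**Figure D3:**
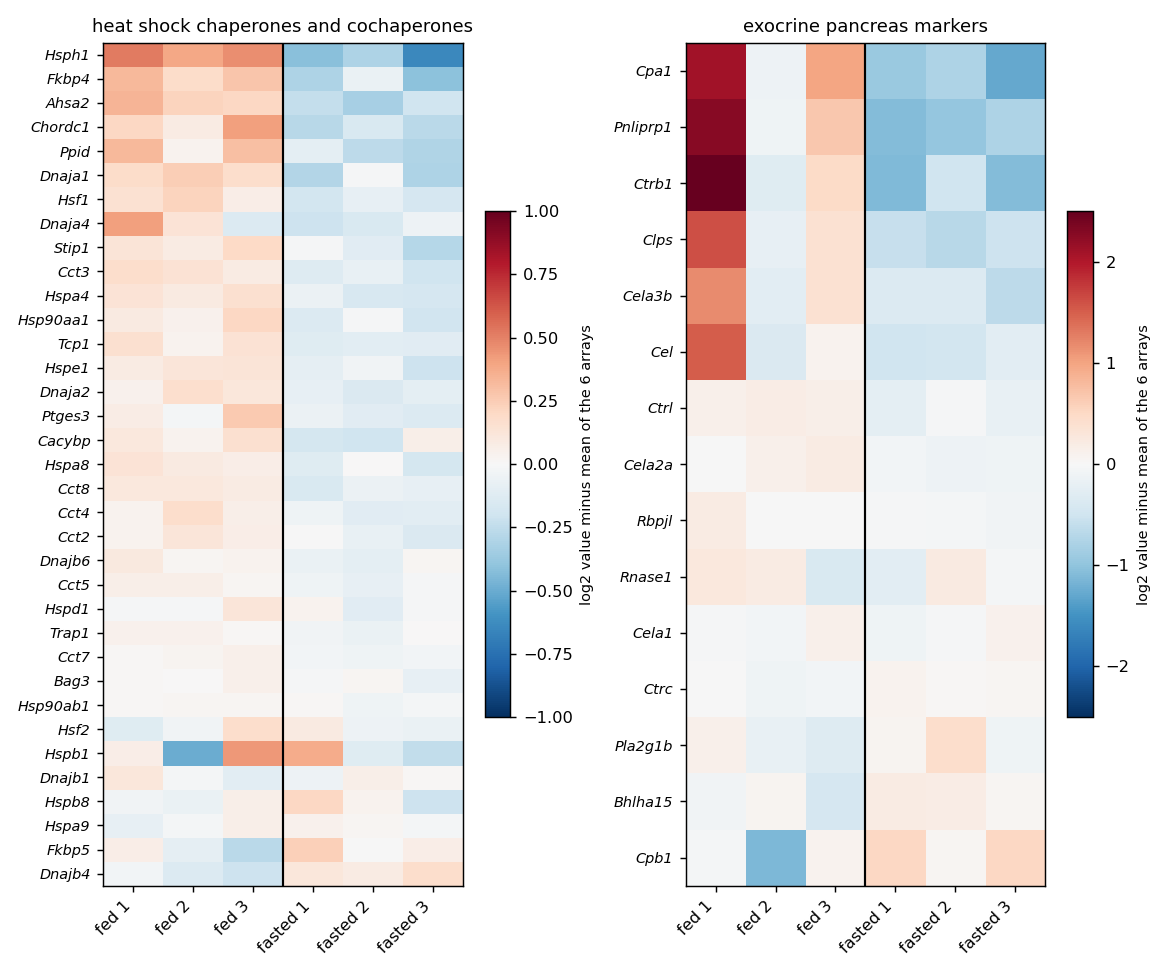
Value of each list member in each total RNA array minus its mean over the 6 arrays (colour, log2 units, red above and blue below the mean), with fed arrays left and fasted arrays right of the black line. Among heat shock genes (left) the fed and fasted sides differ across most rows, led by Hsph1, whereas among exocrine pancreas markers (right, with a wider colour scale) the signal is concentrated in fed total 1 and in 6 of 15 rows.

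Genes of ribosome assembly and of the proteasome had small changes, mostly below 0, without passing the threshold. None of 51 ribosome biogenesis genes passed in limma, although 47 had a change below 0, the median was -0.16, and in 25 all fasted arrays lay below all fed ones, against 11.9% of all genes. The nearest were Heatr1 at -0.40 ± 0.09 (limma adjusted p = 0.0602), Nolc1 at -0.33 ± 0.09 (0.0995) and the helicase Ddx21 at -0.28 ± 0.08 (0.105), all nucleolar factors. Bysl, Emg1 and Rrp15, which also act in ribosome assembly but were not in the list and were picked after their values were seen, fell by 0.31, 0.39 and 0.40 on the log2 scale, each past the limma threshold. None of 41 proteasome subunits passed, with 37 below 0, a median of -0.14 and 23 with separate, lower fasted arrays (11.9% of all genes); Psma1 (-0.25 ± 0.07) and Psmd7 (-0.24 ± 0.06) had limma adjusted p of 0.0917 and 0.0940. The 67 cytosolic ribosomal proteins and 51 oxidative phosphorylation genes had medians of -0.04 each and no member past the threshold. In the ER folding list, 1 of 31 rose (0.737% of all genes). Dnajb9, a partner of the ER chaperone BiP, read 10.05, 9.76 and 10.02 against 10.55, 10.58 and 10.42, a rise of 1.49-fold (limma adjusted p = 0.0431).

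A few genes of growth arrest and autophagy rose. In the list of growth arrest, FoxO and p53 targets, 2 of 32 were higher (0.737% of all genes), with a median of 0.19. In 15 members the fasted arrays were all above the fed ones, as in 12.9% of all genes. Gabarapl1, a member of the ATG8 family that builds autophagosomes, read 10.06, 10.39 and 10.05 in fed and 11.43, 11.25 and 10.78 in fasted livers. All fasted arrays were higher, by 1.98-fold (limma adjusted p = 0.0151). Fbxo32, the ubiquitin ligase atrogin-1 of muscle wasting, read 5.96, 5.90 and 6.0 against 6.62, 6.71 and 6.89, a rise of 1.72-fold (limma adjusted p = 0.0104). Its fed means, 5.95 in total and 5.67 in polysome RNA, were below the filter level, so it entered the test only through the fasted arrays. Cdkn1a, the cell cycle inhibitor p21, read 8.19, 8.46 and 8.30 against 9.09, 8.59 and 8.59 (limma adjusted p = 0.161), and Cdkn1c, the inhibitor p57, overlapped between diets. Ddit4, an inhibitor of mTORC1, was 0.33 ± 0.11 higher (limma adjusted p = 0.170), and Txnip 0.18 ± 0.11 higher (0.461). In the list of lysosome and autophagy, Gabarapl1 was the 1 of 44 that passed (1.03% of all genes). The cargo receptor Sqstm1 (0.39 ± 0.09) and the lysosomal Ctsa (0.32 ± 0.08) had limma adjusted p of 0.0577 and 0.0623. Pink1, a kinase that marks damaged mitochondria for removal, Calcoco1, an autophagy receptor, and Wdr45, a phosphoinositide-binding autophagy protein, lay outside these lists and were picked after their values were seen. Pink1 read 9.39, 9.45 and 9.19 in fed and 9.91, 9.95 and 9.92 in fasted livers (1.5-fold), Calcoco1 rose 1.58-fold and Wdr45 1.33-fold, with limma adjusted p of 0.00289, 0.00289 and 0.0181.

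Among genes of DNA replication, 1 of 51 fell (0.295% of all genes), with a median of -0.10. In 17 members the fasted arrays were all lower, as in 11.9% of all genes. Orc1, the largest subunit of the complex that marks origins, read 10.09, 10.03 and 9.78 in fed and 9.39, 9.28 and 9.38 in fasted livers. The groups were separate and the fall was 1.53-fold (limma adjusted p = 0.0129). Pcna, the sliding clamp, at -0.26 ± 0.08 and the cyclin Ccne2 at -0.27 ± 0.08 had limma adjusted p of 0.116 and 0.121. Ccnd1 was 0.14 ± 0.09 lower (limma adjusted p = 0.475), and Mki67 was not analysed here. None of 42 genes of mitosis passed, and their median was 0.01.

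Of 16 circadian clock genes 2 changed (1.03% of all genes), both of them repressors within the clock. Nr1d2, the haem-binding repressor REV-ERB beta, read 6.83, 6.96 and 6.81 in fed and 7.61, 7.93 and 7.75 in fasted livers. Its groups were separate, with a rise of 1.86-fold (limma adjusted p = 0.00998). Cry1, which inhibits the CLOCK and BMAL1 pair, read 8.55, 8.44 and 8.38 against 7.63, 7.96 and 7.95, a fall of 1.53-fold (limma adjusted p = 0.0140). Nr1d1, the paralog of Nr1d2, was 0.46 ± 0.13 higher (limma adjusted p = 0.107), while the output factor Dbp overlapped between diets and Per1 differed by 0.19 ± 0.09 (0.306). The labels give no hour of collection, so a difference in hour between diets cannot be told apart from the diet.

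Growth factor genes of the IGF system did not pass in limma, in 0 of 25 members (1.03% of all genes). Igf2, the main fetal growth factor, read 13.16, 13.23 and 13.21 in fed and 13.21, 13.16 and 13.13 in fasted livers, overlapping at a high level. Igf1 read 9.68, 9.56 and 9.64 against 9.63, 9.60 and 9.87, also overlapping. The binding proteins differed more. Igfbp2 read 10.20, 9.99 and 10.34 in fed and from 10.66 to 11.10 in fasted livers. Its groups were separate, as in 24.7% of all genes, with a change of 0.74 ± 0.19 (limma adjusted p = 0.0801). Igfbp1 read 12.68, 12.77 and 12.43 against 13.31, 13.02 and 13.08, also separate, with a change of 0.51 ± 0.14 (limma adjusted p = 0.105). Igfbp3 differed by -0.08 ± 0.13 (limma adjusted p = 0.826). None of 21 imprinted genes passed; Sgce was nearest, at 0.47 ± 0.11 (limma adjusted p = 0.0560). In the list of glucocorticoid responders, 1 of 26 changed (1.03% of all genes). Ccn1, a matrix signalling protein, fell 1.41-fold (limma adjusted p = 0.0420), against a list median of 0.17. Fkbp5, a direct target of the glucocorticoid receptor, overlapped between diets (limma adjusted p = 0.416).

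Lists of hepatocyte identity are read here beside the 1.03% of all genes that passed the threshold. None of 30 plasma carriers and apolipoproteins passed, with a median of 0.02, and Afp, the albumin of the fetus, differed by 0.01 ± 0.07 (limma adjusted p = 0.960). Of 37 complement and coagulation genes 1 rose (0.737% of all genes). F11, coagulation factor XI, read 9.79, 9.90 and 10.07 against 10.57, 10.47 and 10.66, a rise of 1.57-fold (limma adjusted p = 0.0197). Of 38 liver transcription factors and nuclear receptors 2 rose (0.737% of all genes), Nr1d2 and Thrb. Thrb, a thyroid hormone receptor, read 9.83, 9.74 and 10.15 against 10.57, 10.43 and 10.38 (1.47-fold, limma adjusted p = 0.0300). In the list of hypoxia and stress, 1 of 29 fell (0.295% of all genes). Gclc, the rate-limiting subunit of glutathione synthesis, read 11.95, 11.64 and 11.57 against 11.19, 11.05 and 11.33 (1.44-fold, limma adjusted p = 0.0384). Slc7a11, the cystine carrier, was 1.33 ± 0.40 higher without passing (limma adjusted p = 0.118). None passed in limma among 28 amino acid transporters (median 0.12), 28 genes of iron and haem (0.05) and 25 of inflammation and acute phase (0.07). The nearest in each were Slc25a15, the mitochondrial ornithine carrier, at 0.38 ± 0.09, the metal carrier Slc11a2 at 0.37 ± 0.12 and Il6r, the interleukin-6 receptor, at 0.42 ± 0.10.

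**Figure D4:**
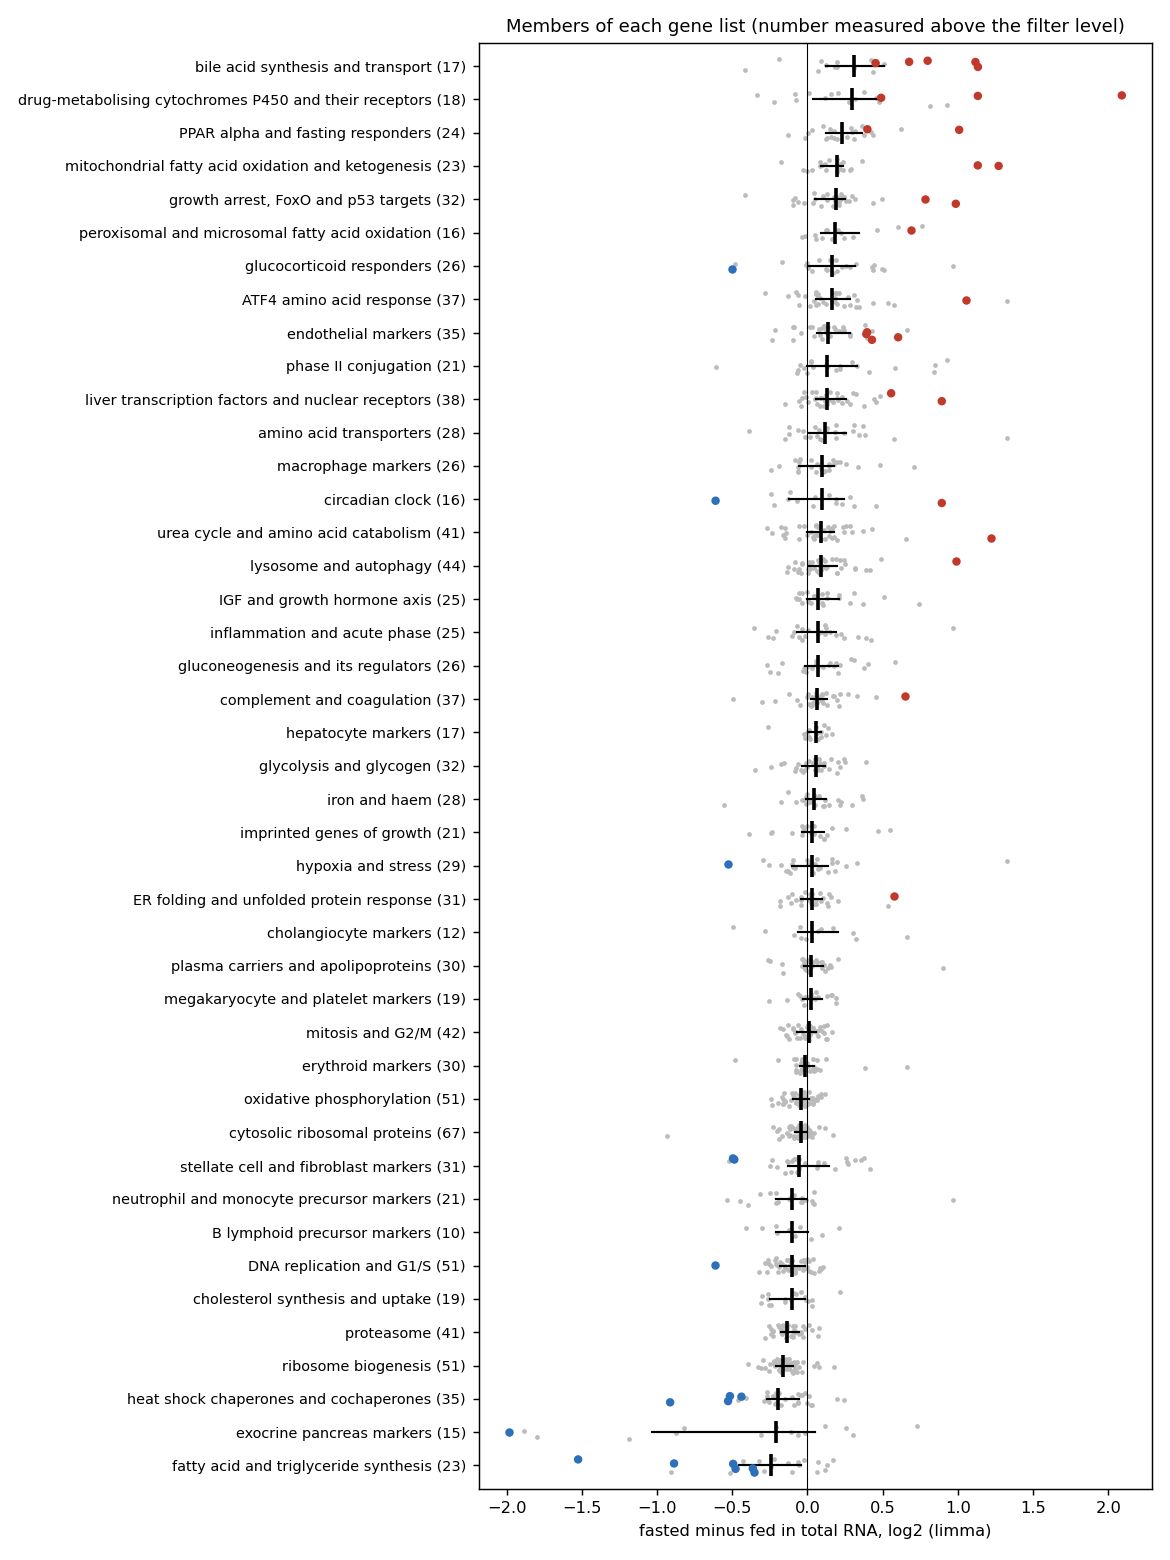
Change with fasting in total RNA (x axis, fasted minus fed, log2) of each member of 43 gene lists with at least 10 members above the filter level (number in brackets); larger red and blue points passed the limma threshold, grey points did not, and the black bar spans the quartiles with a tick at the median. Medians run from 0.31 for bile acid genes to -0.24 for fatty acid synthesis.

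The largest changes also included genes of no list. Among the rises, Cdkl1, a kinase related to the cyclin-dependent kinases, read 7.69, 7.15 and 7.48 in fed and 8.48, 8.47 and 8.77 in fasted livers (2.19-fold; limma adjusted p = 0.0181). Adgrg2, an adhesion receptor, rose 2.10-fold, the receptor tyrosine phosphatase Ptprz1 2.07-fold and the trace amine receptor Taar1 1.97-fold, with limma adjusted p of 0.0230, 0.0300 and 0.0306. Ptprz1 was uneven among fed arrays, at 7.42, 7.60 and 8.21. The fed arrays of Taar1 averaged 6.02 in total and 5.91 in polysome RNA, under the filter level, so it entered the test only through the fasted arrays. Among the falls, Ppil3, a cyclophilin-like isomerase, read 9.35, 9.58 and 9.43 against 8.72, 8.87 and 8.75 and fell 1.60-fold (limma adjusted p = 0.0129). Plxna2, a semaphorin receptor, fell 1.53-fold (limma adjusted p = 0.0148). Ccnb1ip1, a ubiquitin ligase of meiotic crossing over, fell 1.54-fold (limma adjusted p = 0.0363), as did the vomeronasal receptor Vom2r16 (0.0347). The fasted means of Vom2r16, 5.80 in total and 6.04 in polysome RNA, were under the filter level, so it entered the test only through the fed arrays. Of the other genes past the threshold, picked after their values were seen, Gpld1, a phospholipase that frees GPI-anchored proteins, rose 1.77-fold, Cirbp, the cold-inducible RNA-binding protein, 1.61-fold, and Csad, which makes hypotaurine on the way to taurine, 1.54-fold. Egfr, the receptor of epidermal growth factor, rose 1.65-fold, and Kitlg, the stem cell factor that blood-forming cells need, fell 1.43-fold.

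Markers of other cells of the liver were read beside these results. In bulk samples, fewer cells of a type and less RNA per cell cannot be told apart. Of 35 endothelial markers 4 were higher (0.737% of all genes) and none lower, with a median of 0.14. In 15 the fasted arrays were all higher, as in 12.9% of all genes, and in 3 they were all lower, as in 11.9%. The change was above 0 in 29 and below 0 in 6. Pecam1, the junction protein CD31, read 8.30, 8.09 and 8.26 in fed and 8.76, 8.58 and 8.59 in fasted livers (1.35-fold; limma adjusted p = 0.0428). Esam, another junction protein, rose 1.32-fold, Fcgr2b, the Fc receptor of sinusoidal cells, 1.52-fold and Bmp2, the signal by which they control iron, 1.31-fold, with limma adjusted p of 0.0420, 0.0429 and 0.0395. All 4 had separate groups. With 1 total array left out, Pecam1 passed in 0 of 6 fits and Esam, Fcgr2b and Bmp2 in 1 of 6 each. The summed intensity of the 35 markers was 19299 to 21217 in fed and 22610 to 23199 in fasted livers. Whether this share of vessel transcripts had a part in the other changes was not tested. Of 31 markers of stellate cells and fibroblasts, 2 fell (0.295% of all genes). Dpt, a matrix protein, read 10.33, 10.16 and 10.42 against 9.79, 9.69 and 9.94 (1.41-fold, limma adjusted p = 0.0431). Lox, which crosslinks collagen, read 8.60, 8.44 and 8.73 against 7.94, 8.12 and 8.25 (1.40-fold, limma adjusted p = 0.0384). Pdgfrb, the growth factor receptor of these cells, was 0.42 ± 0.09 higher with a limma adjusted p of 0.0543, so the list did not move in 1 direction (median -0.06).

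Markers of blood-forming cells did not pass, where 1.03% of all genes did. In lists this short, none past the threshold does not set them apart from other genes. None passed in limma among 30 erythroid markers (median -0.02), 26 macrophage markers (0.10), 21 of neutrophil and monocyte precursors (-0.10), 19 of megakaryocytes and platelets (0.02), 10 of B lymphoid precursors (-0.10) or 8 of mast cells and eosinophils (0.17). The summed intensity of the erythroid markers was 149302 to 160573 in fed and 149184 to 154728 in fasted livers, and that of the hepatocyte markers 163289 to 165760 and 163378 to 173094. The macrophage receptor Csf1r was 0.33 ± 0.09 higher (limma adjusted p = 0.0789), and the neutrophil granule gene Ngp 0.54 ± 0.21 lower with overlapping groups (0.232). None passed among 12 cholangiocyte, 6 globin, 6 kidney, adrenal and gut, or 4 endocrine pancreas markers.

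The largest fall belonged to a gene of another organ. Cpa1, a digestive carboxypeptidase of the exocrine pancreas, read 10.10, 7.87 and 8.98 in fed and 7.07, 7.21 and 6.72 in fasted livers. The fasted arrays were close together and the fed arrays spread over more than 2 log2 units, with a fall of 3.95-fold (-1.98 ± 0.43; limma adjusted p = 0.0486). Without fed total 1 the change was -1.42 (limma adjusted p = 0.128). Of 15 exocrine pancreas markers above the filter level, Cpa1 was the 1 that passed (1.03% of all genes), and 17 others lay below that level. Their summed intensity was 5034 in fed total 1, 1896 in fed total 2, 2455 in fed total 3 and 1738 to 1884 in the fasted arrays. The zymogen and lipase genes Ctrb1, which read 10.55, 7.74 and 8.53 against 6.93, 7.54 and 6.96, and Pnliprp1, which read 8.88, 6.50 and 7.27 against 5.51, 5.64 and 5.84, had the same order among the fed arrays. Their changes of -1.80 ± 0.53 and -1.88 ± 0.42 had limma adjusted p of 0.112 and 0.0540. The part of pancreatic transcripts in the other results was not tested; without fed total 1, 22 genes passed, of which 17 were higher and 5 lower.

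The polysome RNA of the same diets, measured on arrays of its own, gave another reading of these 105 genes. The change had the same sign in polysome RNA for 102 of them, and the share of all genes with the same sign in both is not given here. The threshold was passed there too by 51, which is 48.6% of the 105. It is 24.9% of the 205 genes that passed in polysome RNA (2.01% of genes tested). Both changes of a gene were tested with the same estimate of its spread, so passing in 1 fraction is not independent of passing in the other. The change was smaller in polysome RNA for 63 of the 75 genes that rose and 27 of the 30 that fell, a description only, since the 105 were chosen by their values in total RNA. The difference between the effects was tested directly, and 0 genes passed in limma (549 genes, 5.4%, at an unadjusted p under 0.05; smallest adjusted p 0.856). Among the 105, 23 had an unadjusted limma p under 0.05 for the difference. Small p are favoured among them, since the total RNA change that selected these genes is part of the difference. The 5 with the smallest such p were Lox, Slirp, Cpa1, Esam and Ppil3, and none of them passed after adjustment. Lox changed by -0.49 ± 0.10 in total and 0.15 ± 0.10 in polysome RNA, and Slirp, a mitochondrial RNA-binding protein, by -0.41 ± 0.09 and 0.09 ± 0.09. Cpa1 changed by -1.98 ± 0.43 and 0.13 ± 0.43, Esam by 0.40 ± 0.08 and 0.05 ± 0.08, and Ppil3 by -0.68 ± 0.11 and -0.24 ± 0.11. Some of the leading metabolic genes were close in both: Cpt1a rose by 1.27 and 1.07, Vnn1 by 1.01 and 1.17, and Scd differed by -1.52 and -1.29.

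**Figure D5:**
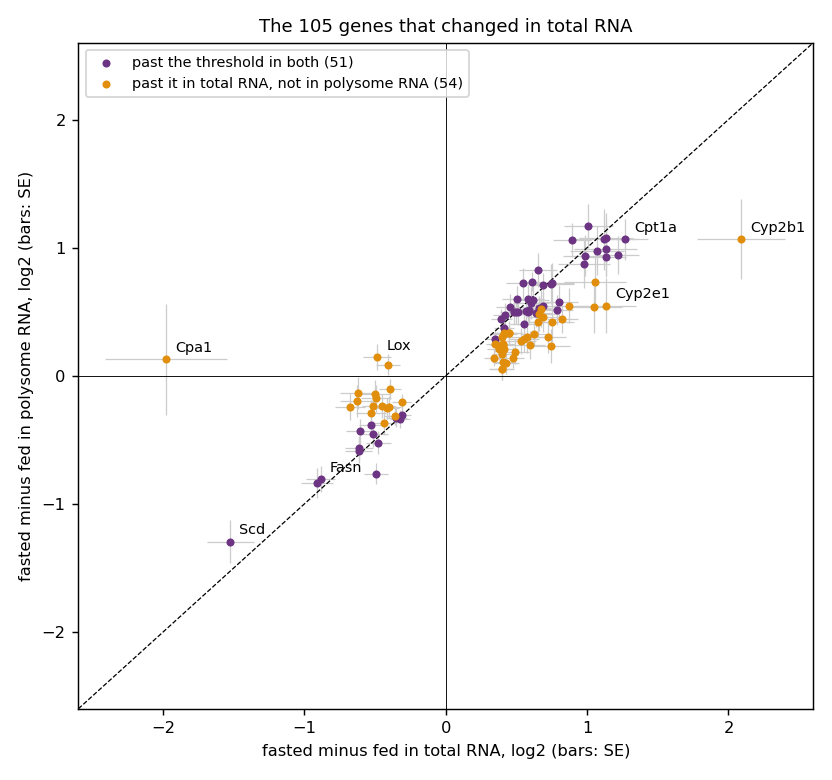
Change with fasting in polysome RNA (y axis) against total RNA (x axis), both fasted minus fed in log2 with SE bars, for the 105 genes that changed in total RNA; the dashed line marks equal changes. The 51 purple points passed the limma threshold in both fractions and the 54 orange points in total RNA but not in polysome RNA; Cpa1 and Lox lie farthest from the line on the falling side.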

How the data were processed

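Fetal rat livers of gestation day 19 had been profiled on Affymetrix Rat Gene 1.0 ST arrays, with 3 arrays for each pairing of diet (fed or fasted dam) and RNA fraction (total or polysome). The authors deposited 1 intensity for every probe on every array, obtained by RMA according to the submitters' processing notes; its version and settings are not given in the sources used here. RMA corrects background and equalises the distributions of arrays, so a shift common to most genes would not be seen. The deposited values ran from 3.62 to 21344 on a linear scale and were taken as log2(value + 1).

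Of 28826 probes, the platform table listed 15515, and 15209 had exactly 1 gene symbol, 306 several; 13311 were not listed and are unnamed here. Names were updated by Entrez identifier through RefSeq (GRCr8), which matched 15178 probes. Of 14497 genes, 494 had several probes. The filter was the 40th percentile of the mean log2 value of all probes (6.07); it kept 10174 genes and left out 4323.

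All 12 arrays entered 1 limma fit with a mean for each of the 4 groups and a shared estimate of the spread (limma 3.58.1 under R 4.3.3, lmFit then eBayes, leaving 8 residual degrees of freedom beside 5.16 of the prior). Two-sided p-values were adjusted by Benjamini-Hochberg over all genes, with a threshold of 0.05. The fit was tested on simulated data for fasting in total RNA over 10174 genes. There it found 52% of the changes added at 1.3-fold, 78% at 1.5-fold and 98% at 2-fold, and it called 0.0602% of unchanged genes. These shares describe the simulated arrays only. Whether they hold for the real arrays, where the count of genes passing depended on single arrays, was not tested. The 33 pathway lists and 15 marker lists came from general knowledge; 1 marker list, of Y-linked and X inactivation genes, had no member above the filter level. The members and lists were chosen with earlier results of these data known, so no list was tested as a set. Genes were named by a rule: the top 15 rises and top 12 falls by size among genes past the threshold with separate arrays and an informative symbol; the members past the threshold in each list, or up to 3 with the smallest p; a fixed set of metabolic, growth, clock and chaperone genes; and the 5 with the smallest p for the difference between fractions. Alternatives were no filter, a filter at the 55th percentile, median centring, quantile normalization, log2 without the added 1, log2(value + 16), probes of a gene averaged, eBayes with trend and robust, a fit of the 6 total arrays alone, blocks by replicate number, and single arrays left out in turn. RefSeq promoter windows (GRCr8) were searched for 8 motifs, chosen with the results known. Plots used matplotlib 3.10.9 in Python 3.11.15.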

Additional observations from a re-analysis of the deposited data

Results flagged for a closer look

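Data outside the gene comparison held changes too. With the same model over all probes at or above the filter level, 10 of 6595 probes without exactly 1 gene symbol changed with fasting in total RNA (limma; 0.152%), 6 of them higher and 4 lower. The largest rise among these was 1.81-fold and the largest fall 2.03-fold, and their genes are unnamed here. In that fit 34 of 10701 probes with 1 symbol passed (0.318%).

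Among the 4323 genes under the filter level, 3 passed in limma when no filter was used (0.0694%). All were higher after fasting: Adcy10, the soluble adenylyl cyclase, by 0.70, the ion channel Mcoln3 by 0.73 and the WNT inhibitor Wif1 by 0.40 on the log2 scale, with limma adjusted p of 0.0306, 0.0293 and 0.0336. Their means over the 12 arrays were 5.64, 5.85 and 6.02. Both checks were chosen after seeing the data.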

How the results depend on the processing

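In limma, 88 of the 105 genes entered all 24 alternatives, and 17 lay under the stricter filter and entered the others. All kept their direction in every fit they entered. With 1 array left out this was certain beforehand, since the groups of all 105 were separate. Of the 105, 14 passed whichever array was left out, and 4 (Acy3, Cpt1a, Nr1d2, Scd) passed in all 12 other settings. The count of 105 became 57 with no filter (45 higher, 12 lower), 154 with the stricter filter, 142 after quantile normalization, 148 with trend and robust priors and 42 with only the 6 total arrays (31 higher, 11 lower, 31 at 1.5-fold). Median centring gave 92 with 19 lower, a share of 79.3% higher against 71.4%. Leaving out 1 array gave 17 to 147 genes, 14 to 103 higher, 3 to 44 lower and 15 to 56 at 1.5-fold. In polysome RNA the count of 205 was 93 with no filter, 327 with the stricter filter, 394 with trend and robust priors and 11 to 755 with 1 array left out. The cause of these shifts was not tested.

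The replicate numbers did not pair fed with fasted total arrays (same-number deviations correlated at -0.129, -0.026 and -0.008). With a replicate block 120 genes passed in total and 309 in polysome RNA, and 5 with the block and only the 6 total arrays (4 higher, 1 lower, 5 at 1.5-fold). A random block of diet and number, which joins the total and polysome arrays sharing both, gave 129 in total and 222 in polysome RNA. The consensus correlation within these blocks was 0.228. The main fit treated all arrays as independent, also for the difference between fractions. With the random block, 0 genes passed for that difference. The labels do not say whether arrays sharing diet and number came from the same livers.

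The signs that reversed belonged to genes that did not pass, each with 1 array left out. On the log2 scale Afp ran from -0.0151 to 0.037, Angptl4 from -0.1884 to 0.4483, Dbp from -0.0062 to 0.2755, G6pc1 from -0.6006 to 0.0004, Igf1 from -0.015 to 0.1178, Igfbp3 from -0.1737 to 0.0633, Ins2, an insulin gene, from -0.2995 to 0.2504 and Pck1 from -0.0987 to 0.0731.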
